A study of Homo sapiens with 12 samples.

Results

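The MYC, MAX and MXD network was followed in HL-60 cells at the level of its own transcripts. Its members were taken by name from the gene table, as 9 of 58233 genes: MYC, MAX, MXD1, MXD3, MXD4, MXI1, MNT, MLX and MGA. HL-60 is an established human acute myeloid leukaemia line, and it is long known to carry amplified copies of MYC. Polyadenylated RNA was sequenced after 3 h from 12 libraries in 4 groups of 3. The groups were untreated cells, cells given 100 nM all-trans retinoic acid (ATRA, the ligand of the retinoic acid receptors), cells given 500 nM of the CDK4/6 inhibitor palbociclib, and cells given both agents at these doses. All libraries came from this 1 line, and no genetic change was introduced. The sources used here do not tie the library numbers to separate cultures. Each p-value thus measures the spread between these libraries as left by rounding, which may be technical. In bulk RNA, fewer cells with a transcript and less of it per cell cannot be told apart.

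As background, MYC is a basic helix-loop-helix leucine zipper factor that binds DNA only as a partner of MAX, mostly at the E-box CACGTG, and drives genes of growth, ribosome production and metabolism. MXD1, MXD3, MXD4, MXI1 and MNT compete for MAX at the same sites and bring in SIN3 and histone deacetylases, which repress. MLX joins the same network from the side, since it pairs with some of these repressors and with the glucose-responsive factors MLXIP and MLXIPL, and MGA holds MAX in the Polycomb complex PRC1.6. A fall of MYC with a rise of MXD proteins is known to accompany the exit of myeloid cells from the cycle.

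The deposited values were reads per kilobase of transcript scaled to each library's mapped reads (RPKM), rounded to whole numbers, and they summed to between 358455 and 390247 per library. The number of reads behind each value is not recoverable from this table, so no counting interval is given. The myeloid markers MPO (1077 to 1579 RPKM) and PRTN3 (195 to 310 RPKM) were high in every library, while ELANE was at 0 to 1 RPKM. Of 8 markers of other cell types, 6 were at 0 in every library and CD79A did not exceed 1 RPKM. PECAM1 read 2 to 3 RPKM in libraries without ATRA and 4 to 6 RPKM in those with it, which took the summed level of the 8 from 2 to 3 RPKM without ATRA to 5 to 7 RPKM with it. The part of these markers in the results was not tested.

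Differences were fitted with limma on log2(RPKM + 0.1) over 7820 genes that reached 5 RPKM in 3 or more libraries, and a gene was called at a Benjamini-Hochberg adjusted p under 0.001. Fold changes below are on that log2 scale, on which genes near 0 move less than their RPKM ratio. MYC, MAX, MXI1, MLX and MGA entered the fit, and so did MXD4, but MXD4 reached 5 RPKM in the 3 combination libraries only, so that its place in the fit depended on the group in which it was highest. MXD1, MXD3 and MNT stayed below 5 RPKM throughout and are given as values.

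MYC fell within 3 h of ATRA, to 0.441 of its untreated level in the fit, and to 0.440 with the combination, while its level with palbociclib alone was near that of untreated cells. MYC (chr8:127735434-127742951 on GRCh38) was by far the most abundant member, with an untreated mean of 185.7 RPKM. That was above the untreated mean of 98.0% of the 12083 genes whose mean over all 12 libraries reached 1 RPKM. The 3 untreated libraries read 168, 184 and 205 RPKM. The ATRA libraries read 72, 73 and 103 RPKM. All 3 ATRA libraries lay below all 3 untreated ones. The means were 185.7 ± 18.6 and 82.7 ± 17.6 RPKM (SD, n = 3 each), a log2 change of -1.18 (SE 0.18, limma adjusted p = 0.000922).

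Palbociclib alone gave 171, 174 and 203 RPKM of MYC, a range that lay almost on that of the untreated libraries. The log2 change of -0.02 had a 95% interval from -0.42 to 0.37 (limma adjusted p = 1). The combination gave 72, 70 and 107 RPKM, close to ATRA alone library by library and below every library without ATRA. Its mean of 83.0 ± 20.8 RPKM was a log2 change of -1.18 from untreated (SE 0.18, limma adjusted p = 0.000612). Against ATRA alone the log2 change was -0.00, with an interval from -0.39 to 0.39 (limma adjusted p = 1). An added effect of palbociclib on MYC beyond those bounds in either direction was thus not seen. With the replicate number as a block, which pairs these treated groups, the interval ran from -0.19 to 0.19. The departure of the combination from the sum of the single changes was 0.02 on the log2 scale, with an interval from -0.53 to 0.58 (limma adjusted p = 1). Both comparisons with untreated cells share the 3 untreated libraries.

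Replicate 3 had the highest MYC value in all 4 groups. Within each replicate number, MYC with the combination was 1, 0.959 and 1.04 times its value with ATRA and 0.421, 0.402 and 0.527 of its value with palbociclib. Against palbociclib alone, MYC in the combination differed by a log2 change of -1.16, with limma adjusted p = 0.00142, just outside the threshold. With the replicate number as a block, which pairs these treated groups, the adjusted p in limma was 2.88e-05 and MYC was called. The MYC calls sat close to the threshold elsewhere too. Leaving out 1 library at a time kept the ATRA call only without ATRA replicate 3 or combination replicate 3, and the limma adjusted p rose as far as 0.00623 without ATRA replicate 2. For the combination against untreated, the call was kept only without ATRA replicate 1, ATRA replicate 3 or combination replicate 3, and the highest limma adjusted p was 0.00402, without untreated replicate 3. MYC was lower in all of these fits.

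**Figure D1:**
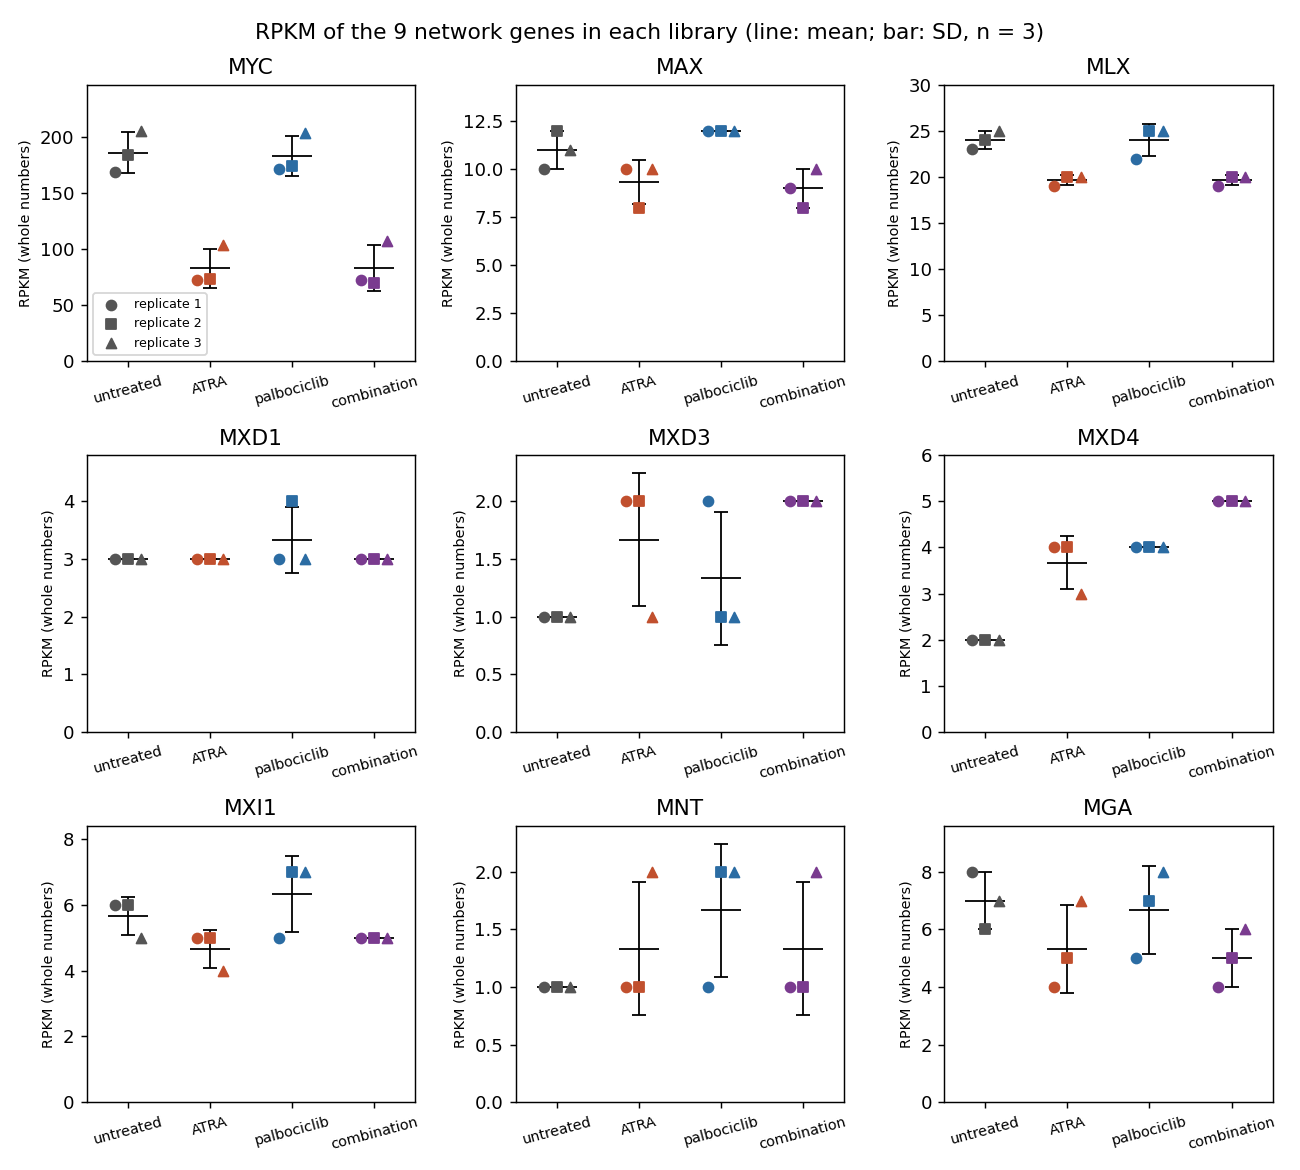
RPKM of the 9 members in each of the 12 libraries, with 1 panel per gene, its own vertical axis and 1 point per library. The group mean is a horizontal line and the SD (n = 3) a vertical bar. MYC sits at 70 to 107 RPKM in the 6 libraries with ATRA and at 168 to 205 RPKM in the 6 without it, while MXD4 steps from 2 RPKM in untreated cells to 5 RPKM in the combination.

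MAX, the shared partner of the network (chr14:65006174-65102695), stood far lower than MYC and was not called in any comparison. Untreated libraries had 10, 12 and 11 RPKM and ATRA libraries 10, 8 and 10 RPKM. Palbociclib gave 12 RPKM in each library and the combination 9, 8 and 10 RPKM. The combination lay below palbociclib in all 3 libraries without overlap, while ATRA and untreated met at 10 RPKM. The log2 change with ATRA was -0.24 (limma adjusted p = 0.150) and with the combination -0.29 (limma adjusted p = 0.0660). Against palbociclib the combination differed in MAX by -0.42 on the log2 scale, with limma adjusted p = 0.0272 and, with the replicate block, 0.0189.

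The ratio of MYC to MAX transcript, both per length, therefore followed MYC. It was 16.9 ± 1.65 in untreated cells, 8.88 ± 1.57 with ATRA, 15.2 ± 1.47 with palbociclib and 9.15 ± 1.39 with the combination (SD, n = 3 each). MYC transcript outweighed MAX transcript in all 12 libraries. Annotated exons of MAX, MLX, MXD1 and MXD3 overlap those of another gene with reads, and whether the kit kept strand is not given in the sources used here. For MAX this is FNTB on the opposite strand, which read 1 to 2 RPKM.

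Among the antagonists, MXD4 rose under each treatment, and the other 4 did not do so without overlap. Of these, only MXD3 lay above untreated without overlap, in the combination alone and by the size of the rounding step. MXD4, at chr4:2247432-2262109 on the minus strand, read 2 RPKM in each of the 3 untreated libraries. It read 4, 4 and 3 RPKM with ATRA, 4 RPKM in each library with palbociclib and 5 RPKM in each with the combination. Every treated library lay above every untreated one, and every combination library above every single-agent one. The log2 changes against untreated were 0.83 with ATRA (SE 0.11, limma adjusted p = 0.000515), 0.97 with palbociclib (limma adjusted p = 0.000976) and 1.28 with the combination (limma adjusted p = 1.81e-05). Against ATRA alone the combination added 0.45 (limma adjusted p = 0.328) and against palbociclib alone 0.31 (limma adjusted p = 0.109), neither of which was called.

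Palbociclib called 1 gene higher of the 7820 tested, and that gene was MXD4. With the filter lowered to 1 RPKM, MXD4 was 1 of 29 genes called higher. The log2 change in the combination differed from the sum of the single changes by -0.52, with an interval from -0.87 to -0.16, but it did not pass adjustment over all genes (limma adjusted p = 1).

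Whole-number rounding limits these ratios and the p-values of MXD4. Its SD was 0 in the untreated, palbociclib and combination groups. Its limma SE thus rests largely on rounded values and on the spread that limma shares across genes, and the true spread between libraries is not seen. A value of 2 RPKM can stand for anything within 0.5 RPKM of it, so the ratio of means of 1.83 for ATRA over untreated could lie between 1.27 and 2.78. The ratio of 2 for palbociclib could lie between 1.4 and 3, and that of 2.5 for the combination between 1.8 and 3.67. All 3 ranges lay above 1, while the combination over palbociclib, at 1.25, reached down to 1. The combination call held in all 12 fits that left out 1 library, though not under the scaling given below. The rounded values were identical within both groups, so the log2 change stayed at 1.28 in each of these fits. MXD4 also stayed in them through the filter on all libraries, so they say little about how firm that call is. The ATRA call held only without ATRA replicate 3, palbociclib replicate 1 or combination replicate 1, with limma adjusted p up to 0.00367 without ATRA replicate 2. The palbociclib call held only without ATRA replicate 3, with limma adjusted p up to 0.00600 without untreated replicate 2. Under quantile scaling of the libraries the ATRA change of MXD4 was 0.43 (limma adjusted p = 0.0841) the palbociclib change 0.66 (limma adjusted p = 0.0480) and the combination change 0.97 (limma adjusted p = 0.00112), so that the direction was the same and all 3 calls were lost.

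The promoter of MXD4 is shown because it is the member that rose in all 3 treatments, and those of MNT and MLX because they hold the same E-box. RefSeq (GRCh38.p14) gave windows for 8 of the members, 13 windows in all, each holding the 250 bases before a transcription start. MXD4, MNT and MLX each had 1 window with CACGTG, the site that MYC-MAX and MXD-MAX dimers share and which reads the same on both strands. Among all 35116 windows of this length, 6.345% held it. The MXD4 window is chr4:2262110-2262359 (minus strand), and the stretches around the E-box of MNT and MLX are chr17:2401236-2401265 (minus strand) and chr17:42567038-42567067 (plus strand). The E-boxes, in capitals, begin at -238, -193 and -50 from the start.
MXD4: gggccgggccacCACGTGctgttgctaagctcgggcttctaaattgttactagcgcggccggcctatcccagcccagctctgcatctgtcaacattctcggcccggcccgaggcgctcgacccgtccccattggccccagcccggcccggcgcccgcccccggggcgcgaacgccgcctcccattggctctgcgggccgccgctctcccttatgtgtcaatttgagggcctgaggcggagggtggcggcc
MNT: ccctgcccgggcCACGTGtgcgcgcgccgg
MLX: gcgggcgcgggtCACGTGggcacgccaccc
The letters GGTCA or GTTCA, followed 5 bases on by GGTCA or GTTCA and searched on both strands, were in none of the 13 windows. They were in 0.131% of all windows. The half-site of retinoic acid receptors has 1 more leading base, so this spacing is not that of their 5-base direct repeat. Nothing about retinoic acid receptor sites is read from this search. The E2F letters TTTCCCGC or TTTGGCGC, on either strand, were in 1 window, of MGA, against 1.928% of all windows. These are matches of letters, not measured binding.

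MXI1, the other antagonist in the fit (chr10:110207605-110287365), read 6, 6 and 5 RPKM in untreated cells and 5, 5 and 4 RPKM with ATRA. Palbociclib gave 5, 7 and 7 RPKM and the combination 5 RPKM in each library. These ranges overlapped in each comparison with untreated cells. The log2 change was -0.28 with ATRA (limma adjusted p = 0.202), 0.15 with palbociclib (limma adjusted p = 0.674) and -0.17 with the combination (limma adjusted p = 0.397). Against palbociclib the combination differed by -0.32 (limma adjusted p = 0.200). In this line MXI1 was the most abundant of the 5 antagonists in untreated cells, and MXD4 reached the same 5 RPKM in the combination.

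MXD1, best known for its induction in maturing myeloid cells (chr2:69897688-69942945), read 3 RPKM in every library but 1 and 4 RPKM in palbociclib replicate 2, so no step was visible at this rounding after 3 h of ATRA. MNT, the broadly expressed antagonist that resembles MXD proteins (chr17:2384073-2401104), lay at 1 RPKM in the untreated libraries and at 1 to 2 RPKM in the treated ones. MXD3, known from the S phase of dividing cells (chr5:177301461-177312757), was at 1 RPKM in each untreated library, 2, 2 and 1 RPKM with ATRA, 2, 1 and 1 RPKM with palbociclib and 2 RPKM in each combination library. The low values of these 3 genes differ by the size of the rounding step. Exons of MXD3 overlap those of PRELID1 on the opposite strand (35 to 50 RPKM) and RAB24 on the same strand, and exons of MXD1 overlap SNRNP27 (5 to 7 RPKM), so their reads may be shared or dropped by the counting. With the filter lowered to 1 RPKM all 9 members were in the fit, and none of these 3 was called in any comparison.

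Because the antagonists compete with MYC for MAX, MYC was also set against the sum of MXD1, MXD3, MXD4, MXI1 and MNT, as a description with no test. The sum itself was 12 to 13 RPKM in untreated cells, 13 to 15 RPKM with ATRA, 15 to 18 RPKM with palbociclib and 16 to 17 RPKM with the combination. MXD4 made up 15.8% of it in untreated cells, 25.5% with ATRA, 24.1% with palbociclib and 30.6% with the combination. MYC was 12.9, 14.2 and 17.1 times the sum in the untreated libraries. The ratio was 4.80, 4.87 and 7.92 with ATRA, 11.4, 9.67 and 11.9 with palbociclib and 4.50, 4.38 and 6.29 with the combination. In the listed values, ATRA and the combination overlapped with each other and with neither of the other groups. Rounding allows up to 9.81 in an ATRA library and down to 8.49 in a palbociclib one, so ATRA and palbociclib could meet. Palbociclib lay below untreated in the listed values, but rounding allows up to 14 in a palbociclib library and down to 10.8 in an untreated one. For ATRA against untreated the rounding bounds did not meet, at 9.81 and 10.8.

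**Figure D2:**
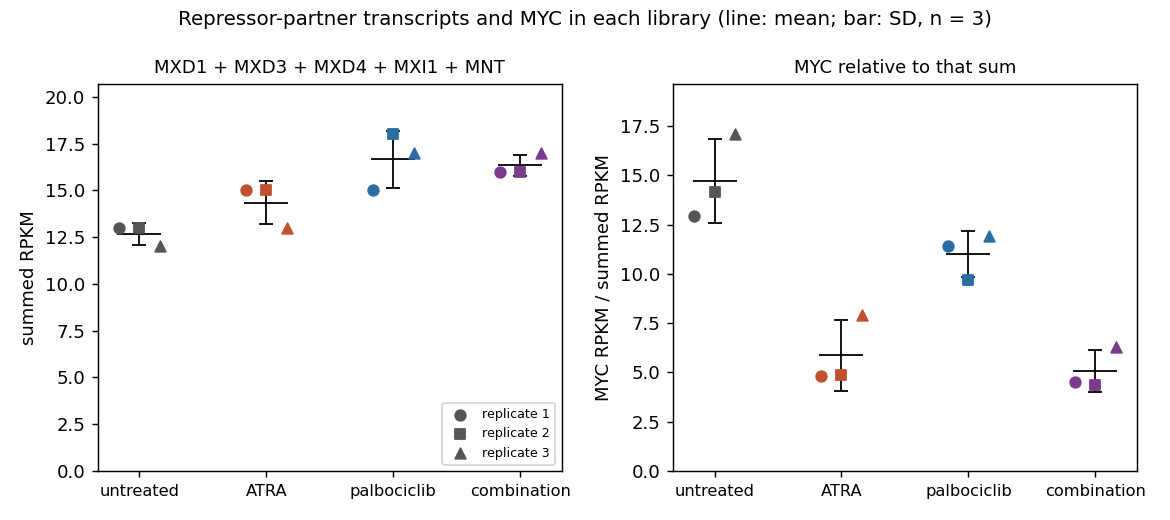
Summed RPKM of MXD1, MXD3, MXD4, MXI1 and MNT (left) and the ratio of MYC RPKM to that sum (right) in each library. Each library is 1 point, with the group mean as a horizontal line and the SD (n = 3) as a vertical bar. The mean ratios are 14.7 in untreated cells, 5.86 with ATRA, 11.003 with palbociclib and 5.06 with the combination.

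MLX, the partner of MLXIP and MLXIPL (chr17:42567072-42573239), was the second most abundant member. Its libraries read 23, 24 and 25 RPKM untreated, 19, 20 and 20 RPKM with ATRA, 22, 25 and 25 RPKM with palbociclib and 19, 20 and 20 RPKM with the combination. All 6 libraries with ATRA lay below all 6 without it, by a narrow margin. The log2 change was -0.29 with ATRA (SE 0.06, limma adjusted p = 0.00843) and -0.29 with the combination (SE 0.06, limma adjusted p = 0.00589), neither past the threshold. Palbociclib changed it by -0.00, with an interval from -0.14 to 0.14 (limma adjusted p = 1). The combination against palbociclib gave -0.28 with limma adjusted p = 0.0122, and 0.000861 with the replicate block, where MLX was called. PSMC3IP, at 2 to 5 RPKM, overlaps MLX exons on the opposite strand.

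MGA, the scaffold of PRC1.6 (chr15:41621134-41773081), read 8, 6 and 7 RPKM untreated, 4, 5 and 7 RPKM with ATRA, 5, 7 and 8 RPKM with palbociclib and 4, 5 and 6 RPKM with the combination. The groups overlapped throughout. The log2 change was -0.41 with ATRA (limma adjusted p = 0.247), -0.09 with palbociclib (limma adjusted p = 0.889) and -0.49 with the combination (limma adjusted p = 0.140), each with an interval that crossed 0.

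**Figure D3:**
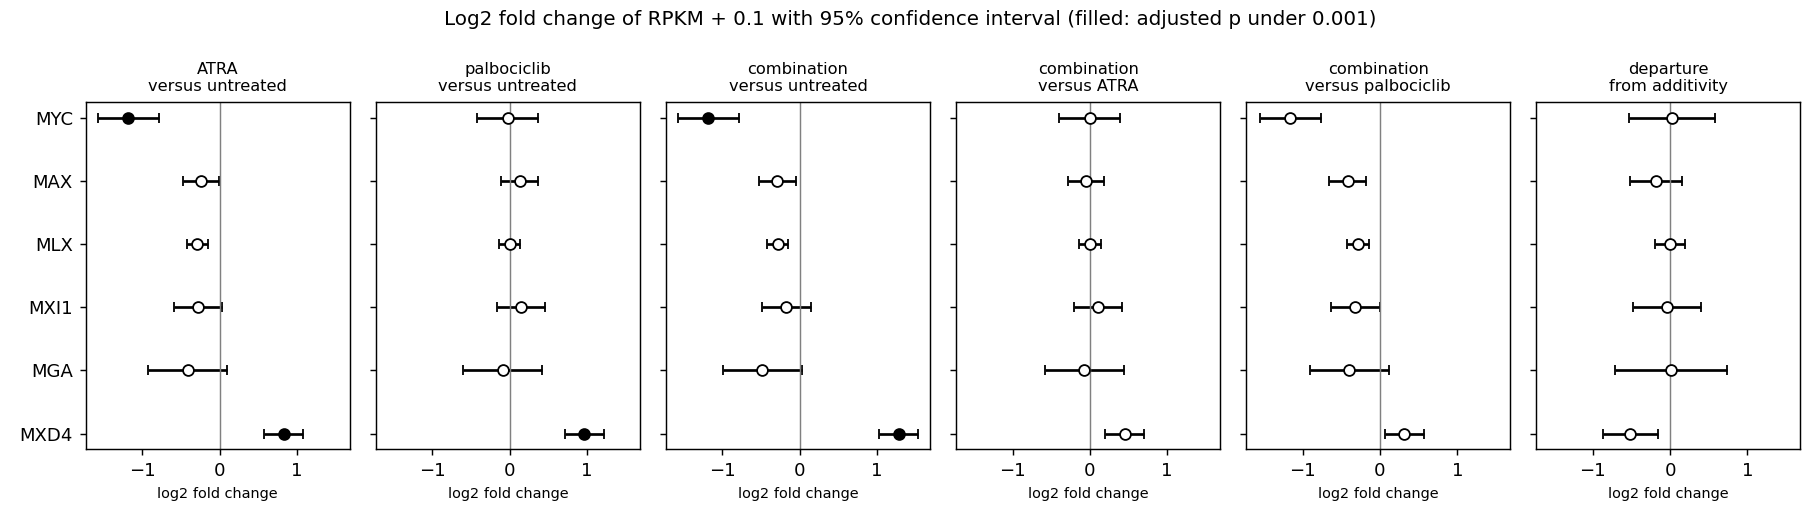
Log2 fold change of RPKM + 0.1 for the 6 members in the fit, by comparison, with 95% intervals from limma and calls at adjusted p under 0.001 marked. MYC lies near -1.18 with ATRA and with the combination, MXD4 lies above 0 in the 3 comparisons with untreated cells, and the intervals of the combination against ATRA cross 0 for every member but MXD4.

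Set against all genes, 1 member was called higher and 1 lower with ATRA, where 2.77% and 1.94% of the 7820 genes were called higher and lower. With palbociclib 1 member was higher and 0 lower, where 0.0128% and 0.486% of genes were called. The first share is MXD4 itself, so nothing is read from it. With the combination 1 was higher and 1 lower, against 3.76% and 4.28%. For the combination against palbociclib 0 members were called, against 2.11% higher and 0.997% lower, and with the replicate block 2 were lower, against 2.57%. For the combination against ATRA limma called 0 members and 0% of genes in either direction, with 287 genes at an unadjusted p under 0.05, and the same held for the departure from additivity, at 0 members and 0% of genes with 236 under 0.05. With the filter at 1 RPKM limma called 11 genes higher and 9 lower for the combination against ATRA, and 54 higher and 31 lower for the departure, with 0 members among them. With so few members, and MXD4 placed in the fit by its combination libraries, these shares describe single genes and not the network.

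Genes that MYC is known to activate were lower after ATRA far more often than higher. Of 42 on the list 40 were tested, and with ATRA 6 were called lower and 0 higher. The combination called 7 lower and 0 higher, and palbociclib 1 lower and 0 higher. Of all genes, 1.94% were called lower with ATRA, 4.28% with the combination and 0.486% with palbociclib. In the combination against palbociclib 2 were called lower and 0 higher, beside 0.997% of all genes lower. Against ATRA 0 were called in limma. Over all 8 lists described here and below, limma called 4 genes for the combination against palbociclib and 12 with the replicate block. Leaving out 1 library took the calls over these lists from 9 to as few as 4 with ATRA, without untreated replicate 2 or 3 or ATRA replicate 2 or 3, and from 15 to as few as 6 with the combination, without untreated replicate 1. In sign, 37 of the 40 were lower with ATRA, 27 with palbociclib and 36 with the combination. The list's median log2 change was -0.30 with ATRA, -0.06 with palbociclib and -0.34 with the combination, beside medians of -0.01, 0 and -0.01 over all 7820 genes. Of all genes 52.4%, 47.6% and 51.7% were lower in sign.

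HK2, the hexokinase that commits glucose to glycolysis, was low where MYC was low. It went from 36, 33 and 37 RPKM in untreated libraries to 17, 13 and 17 RPKM with ATRA and 16, 12 and 17 RPKM with the combination, with 29, 32 and 38 RPKM under palbociclib. Its log2 change was -1.18 with ATRA, -1.24 with the combination and -1.14 for the combination against palbociclib, all called in limma. POLR1B, a core subunit of RNA polymerase I, had a mean of 22.3 RPKM untreated, 12.7 RPKM with ATRA, 20.0 RPKM with palbociclib and 11.7 RPKM with the combination, and was called with ATRA (-0.82) and the combination (-0.93). WDR43, a ribosome biogenesis factor, fell from 58.7 RPKM to 39.0 RPKM with ATRA and 37.3 RPKM with the combination and was called in both, and also in the combination against palbociclib (-0.48). None of these 3 genes was called for the combination against ATRA.

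CDC25A, the phosphatase that activates cyclin-dependent kinases at entry to S phase, had another pattern. It read 36, 35 and 34 RPKM untreated, 22, 21 and 22 RPKM with ATRA, 18, 19 and 18 RPKM with palbociclib and 15, 15 and 13 RPKM with the combination. The 4 groups did not overlap. It was called lower with ATRA (-0.69), with palbociclib (-0.93) and with the combination (-1.28), and it was the 1 gene of the list called with palbociclib, where MYC itself was not. CDC25A is known as an E2F target as well as a MYC target. Of 7 genes MYC is known to repress, 3 were tested and 1 was called, beside 2.77% of all genes called higher with ATRA and 3.76% with the combination. NDRG1, a gene of differentiation and stress, rose from 2 RPKM in every untreated and palbociclib library to 9, 14 and 14 RPKM with ATRA and 10, 15 and 15 RPKM with the combination, log2 changes of 2.54 and 2.65. NDRG1 passed the 5 RPKM filter only through the libraries with ATRA.

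**Figure D4:**
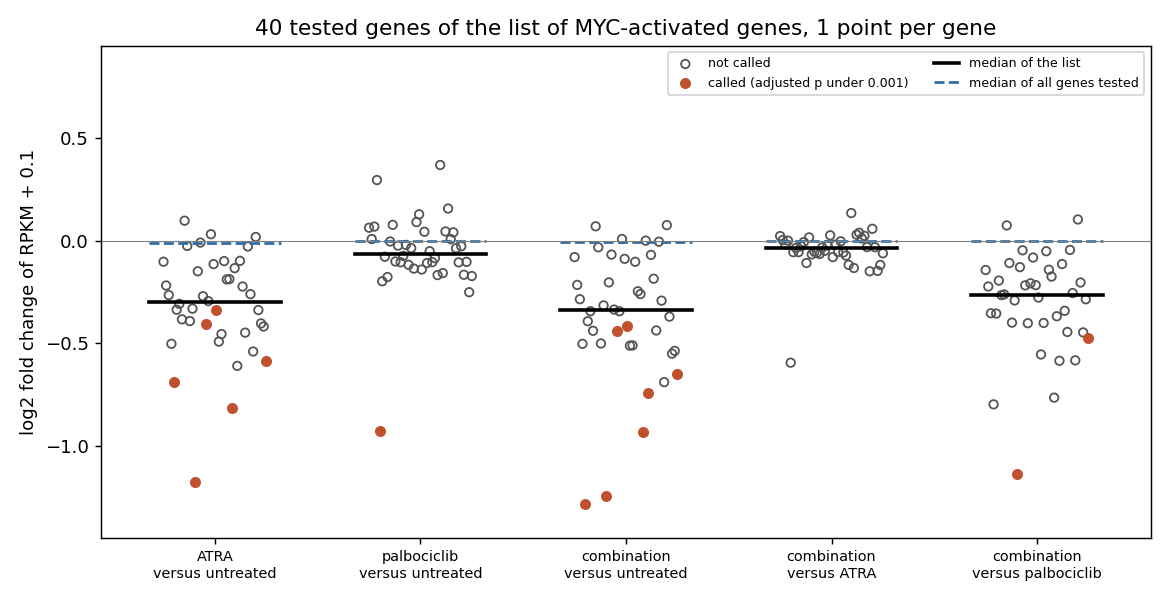
Log2 fold change of RPKM + 0.1 of the 40 tested MYC-activated genes in 5 comparisons, 1 point per gene, with filled points called at a limma adjusted p under 0.001, a solid line at the list's median and a dashed line at the median of all 7820 genes. Most points lie below 0 where cells with ATRA are set against cells without it, and the list's median is near 0 for the combination against ATRA, at -0.03.

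The corepressor genes that MXD proteins recruit held 1 called gene. Of 15 SIN3 and histone deacetylase genes 14 were tested, and SAP30, a subunit of the SIN3 complex, was the 1 called. Of all genes, 1.94% were called lower with ATRA, 4.28% with the combination and 0.997% for the combination against palbociclib. It read 24, 28 and 28 RPKM untreated, 15, 13 and 12 RPKM with ATRA, 25, 23 and 24 RPKM with palbociclib and 13, 11 and 11 RPKM with the combination. Its log2 change was -0.997 with ATRA and -1.19 with the combination, and -1.04 for the combination against palbociclib. The list's median change was -0.05 with ATRA and -0.13 with the combination. The 15 cofactors of MYC held 1 call, CDK9, the kinase that releases paused RNA polymerase II, which rose in the combination from 13, 15 and 13 RPKM to 20, 20 and 19 RPKM (log2 change 0.52), beside 3.76% of all genes called higher. CDK9 had means of 18.0 RPKM with ATRA (0.40, limma adjusted p = 0.00330) and 17.0 RPKM with palbociclib (0.31, limma adjusted p = 0.0412), and the combination differed from ATRA by 0.13 (limma adjusted p = 1).

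Of 16 genes that set the stability of the MYC protein 12 were tested, and SKP2, the F-box protein of a ubiquitin ligase for MYC and for p27, was called lower under all 3 treatments. Its means were 45.0 RPKM untreated, 31.0 RPKM with ATRA, 30.3 RPKM with palbociclib and 26.3 RPKM with the combination. The log2 changes were -0.54, -0.57 and -0.77, beside 1.94%, 0.486% and 4.28% of all genes called lower. SKP2 and CDC25A were the 2 genes of the pathway lists called with palbociclib. No more than 1 of them kept that call when any 1 library was left out, and 0 without untreated replicate 1. Among the partners of MGA and MAX in PRC1.6, 7 of 9 were tested, and none was called with a single agent. In the combination 3 were called lower, beside 4.28% of all genes. PCGF6, the ring finger protein that defines the complex, went from 11.3 ± 0.577 to 7 ± 1 RPKM (-0.70). E2F6, its DNA-binding repressor, went from 7 RPKM in each library to 5 RPKM in each (-0.48), and TFDP1, the E2F dimer partner, from 105.3 to 76.0 RPKM (-0.47). With the single agents PCGF6 had means of 8.67 RPKM (ATRA) and 7.33 RPKM (palbociclib), E2F6 of 6 and 5.67 RPKM and TFDP1 of 83.7 and 84.3 RPKM. In the fit without the replicate block, the combination was not called against either agent for any of the 3. For PCGF6 it differed from palbociclib by -0.07 (limma adjusted p = 0.776). The log2 median of that list was -0.24 with ATRA, -0.16 with palbociclib and -0.40 with the combination.

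On the MLX side, TXNIP, the glucose-responsive inhibitor of thioredoxin and of glucose uptake, read 45, 44 and 49 RPKM untreated, 57, 64 and 63 RPKM with ATRA, 52, 55 and 59 RPKM with palbociclib and 67, 73 and 79 RPKM with the combination. It was called higher with the combination (log2 change 0.66, limma adjusted p = 0.000118) and not with ATRA (0.41) or palbociclib (0.27) alone, and the combination was not called against ATRA (0.25, limma adjusted p = 0.634) or palbociclib (0.40, limma adjusted p = 0.00639). The other target listed, ARRDC4, stayed at 1 to 2 RPKM. The remaining bHLH zipper genes of the network were all below 5 RPKM. MYCN was at 0 in every library, MYCL at 1 to 2 RPKM and MLXIP at 2 to 4 RPKM. MLXIPL was listed at 0 in all 6 libraries without ATRA and at 3, 4 and 4 RPKM in each of the groups with it.

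Across the 12 libraries the genes whose log2 values ran closest to those of MYC were MYB (Pearson r = 0.994), TLR2 (0.988), TAGAP (0.983), IRS2 (0.981) and NRROS (0.975), among 7819 genes compared. MYB, the haematopoietic transcription factor, had means of 58.7 RPKM untreated, 28.3 RPKM with ATRA, 56.0 RPKM with palbociclib and 29.0 RPKM with the combination. For MXD4 the closest included HLA-E (0.953), RASAL3 (0.934), SLC25A6 (0.930) and TMEM129 (0.929). HLA-E, a non-classical MHC molecule, had means of 78.7, 101.3, 96.3 and 111.7 RPKM in the same order. The points of these correlations share the 4 treatment groups and the replicate numbers, and the likeness is a description.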

How the data were processed

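Per the study's methods and the labels, polyadenylated RNA of HL-60 cells was prepared with a TruSeq kit and sequenced on an Illumina HiSeq instrument. The submitters' processing notes name HISAT2, HTSeq and hg38. The values deposited by the authors are RPKM rounded to whole numbers, treated here as a score and not as counts. The study's supplement gives read depth as an average over samples only, the depth of each library is not in this table, and rounding limits precision most below about 5 RPKM.

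Genes reaching 5 RPKM in 3 libraries entered 1 limma fit (version 3.58.1, R 4.3.3; Python 3.11.15) of log2(RPKM + 0.1) with the 4 groups and all 12 libraries, with Benjamini-Hochberg adjustment over all genes tested and calls at 0.001. The fit was first tested on simulated data. Alternative filters were 1 RPKM in 3 libraries or in 1 library. Other alternatives were a pseudocount of 1, quantile scaling, a threshold of 0.05, a replicate block, the compared libraries alone, and 1 library left out.

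Deviations of same-numbered libraries from their group means had r of 0.782 to 0.908 for the combination with ATRA, 0.438 to 0.702 for the combination with palbociclib and 0.497 to 0.751 for the single agents with each other. The treated groups were therefore taken as paired by number. The main fit left this pairing out, so comparisons between treated groups are unpaired wherever the replicate block is not named. Untreated libraries gave 0.0453 to 0.367 with the treated ones and were not taken as paired.

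The members and the pathway lists were chosen with earlier results of these data known. Named from each list were up to 3 called genes per direction and comparison with the largest change, and from lists with none called the most abundant. For MYC and each called member, the 5 genes most correlated over the libraries were named, of which 1 is not reported here. Values of other list genes were added after they were seen. Gene positions are from GENCODE 44 and promoter windows from RefSeq.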

Additional observations from a re-analysis of the deposited data

How the results depend on the processing

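Of 714 changes of members recomputed under alternatives, 646 kept their side of the threshold, 51 lost the call and 17 gained it. Direction was compared only where a change was called in either fit, and there 0 reversed. Uncalled changes near 0 could change sign and still count as kept. Most kept changes were uncalled in both fits. All lost calls were of MYC and MXD4. Of 20 alternatives each, the MYC call was lost in 14 with ATRA and 12 with the combination. The MXD4 call was lost in 11 with ATRA, 13 with palbociclib and 1 with the combination. The number of members called was 2 with ATRA, 1 with palbociclib, 2 with the combination and 0 for the combination against palbociclib. It moved as follows, and the cause was not tested. With a filter of 1 RPKM in 3 libraries, and with 1 RPKM in only 1 library (15220 genes), it was 1 with ATRA and 1 with the combination (MXD4). MYC then had adjusted p values above the threshold. With a pseudocount of 1 it was 0 with palbociclib. Under quantile scaling it was 0 with ATRA, 0 with palbociclib and 1 with the combination. At a threshold of 0.05 it was 3 with ATRA and 3 with the combination (MYC, MXD4 and MLX) and 3 for the combination against palbociclib (MYC, MAX and MLX). Of all 7820 genes, 681 were then called higher and 909 lower with ATRA, and 996 and 1381 with the combination. For the combination against palbociclib these were 458 and 519. With only the compared libraries, which leaves fewer to estimate the spread, the number of members called was 0 with ATRA and 1 with the combination. Leaving out 1 library at a time gave 0 to 2 with ATRA, 0 to 1 with palbociclib, 1 to 2 with the combination and 0 to 1 for the combination against palbociclib.

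With the replicate block it was 2 for the combination against palbociclib (MYC and MLX). With the block and 0.05 together it was 4 with the combination and 3 for the combination against palbociclib. Of all 7820 genes, 1546 were then called higher and 1992 lower with the combination. For the combination against palbociclib these were 790 and 1049. Untreated libraries share only a number with the treated ones. There the block added MLX to the calls with ATRA (limma adjusted p = 0.000627) and with the combination (0.00043), and raised the genes called lower with ATRA from 152 to 346 and with the combination from 335 to 690. The genes of the pathway lists called, 9 with ATRA, 2 with palbociclib, 15 with the combination and 4 for the combination against palbociclib, were 18, 3, 28 and 12 with the block, 28, 7, 38 and 19 at a threshold of 0.05, and 1, 0, 1 and 0 with only the compared libraries. Leaving out 1 library gave 4 to 8, 0 to 1, 6 to 15 and 2 to 4. Of all 7820 genes, the block called 376 higher and 346 lower with ATRA, and 5 and 78 with palbociclib. It called 514 and 690 with the combination, and 280 and 201 for the combination against palbociclib. The threshold of 0.05 called 71 genes higher and 247 lower with palbociclib, and its other totals are given above. Lowering the filter to 1 RPKM raised the genes called with palbociclib from 1 to 29 higher and from 38 to 86 lower.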
